A study of Mus musculus with 18 samples.

Results

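EO771 is a mouse mammary carcinoma line, and the cells described here were cultured with 12-HETE or with its vehicle. The 6 libraries, 3 per group, are part of a series of 18 mouse libraries, of which the other 12 came from sorted endothelial cells. Per the methods of the study, cells were held for 48 h in 100 nM 12-HETE or in 2% DMSO in saline, and the labels give the treatment without a dose or a time. No genetic change is named for either group, and the comparison covers 1 cell line, 1 dose and 1 time. The members are all lines of the EO771 count table with a mean count of at least 10 over the 6 libraries, 11602 of 22612, with weight here on programmes other than the interferon response and on the genes that rose. The study describes the replicates as independent experiments, and the labels do not say whether they were separate cultures.

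12-HETE is a lipid that 12-lipoxygenase makes from arachidonic acid, a fatty acid released from membrane phospholipids. Such eicosanoids act between neighbouring cells and can bind receptors at the cell surface or proteins inside the cell. Interferons induce a large set of antiviral genes through transcription factors that bind an interferon-stimulated response element in promoters. ATF4 induces genes for amino acid supply when amino acids or protein folding fail, SREBP2 induces the cholesterol synthesis genes, and immediate early genes such as Atf3 and Junb are transcribed within minutes of a stimulus.

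The markers given for the comparison were at high levels with vehicle and low with 12-HETE. Normalised read counts, which are counts divided by a size factor per library, of Isg15, a ubiquitin-like antiviral protein, were 8749.8, 9288 and 7949.9 with vehicle 1 to 3 and 18.5, 34.5 and 33.5 with 12-HETE 1 to 3. Irf7, the transcription factor that amplifies interferon production, stood at 15203, 19499.6 and 14453 with vehicle and 67.8, 85.7 and 63.97 with 12-HETE. Usp18, which damps signalling from the interferon receptor, stood at 12398, 13639 and 11640.2 with vehicle and 487, 489 and 441 with 12-HETE. None of these genes overlapped between groups, which was so, with 12-HETE below vehicle, for 30.5% of all tested genes and, with 12-HETE above, for 30.2%. The log2 fold changes were -8.23 ± 0.19 for Isg15, -7.82 ± 0.18 for Irf7 and -4.73 ± 0.11 for Usp18 (SE, DESeq2). Exons of Irf7 and of Usp18 overlap another annotated gene and the strand setting of the counting is not given in the sources used here. Of the epithelial markers of the line, Krt8, Krt18, Krt7, Epcam, Erbb2, Esr1, Cdh1 and Vim passed the count minimum, while Pgr and Esr2 were at 0 in every library.

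Matches to the interferon-stimulated response element, searched on both strands as GAAA, any 2 bases and GAAA, were found in 40% of 85 interferon alpha genes with a RefSeq promoter window of 250 bases before to 50 after the start, 13.5% of called lower genes, 3.12% of called higher genes, 3.91% of tested genes and 3.99% of all windows by gene. The stretch upstream of Isg15 is shown because it carries the element in the leading marker (GRCm38.p6, chr4:156200850-156200909, minus strand), 5′ to 3′, with its 3 overlapping matches in capitals.
Isg15: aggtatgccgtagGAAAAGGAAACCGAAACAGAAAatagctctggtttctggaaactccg

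Depth was alike, at 17.3 to 18.6 M counts per library, but the groups differed in spread. Among 4488 genes with a mean normalised count of at least 1000, the median coefficient of variation was 10.01% with vehicle and 2.86% with 12-HETE. The spread between vehicle libraries followed the GC content of transcripts. Across 9529 genes with a mean of at least 100, Spearman's rho between a library's deviation from its group mean and transcript GC content was 0.19, 0.42 and -0.59 in vehicle 1 to 3 and 0.13, 0.16 and -0.28 in 12-HETE 1 to 3. These correlations run across genes of 1 library, which are not independent replicates.

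With 12-HETE, 276 genes were called higher, 2.38% of the genes tested, and 904 were called lower, 7.79%. A call needed an adjusted p under 0.05 in the two-sided Wald test of DESeq2 and a fold change over 2, or a log2 fold change above 1 or below -1. The median log2 fold change of all tested genes was 0.00. The genes that rose did so by less than those that fell: 197 of the 276 had a log2 fold change under 1.5 and 23 had one over 2, while 360 of the 904 lower genes fell by over 2 on the log2 scale. Of the lower genes, 173 were on the interferon alpha or gamma lists or had a symbol of the families counted with them, and 731 did not. Among the higher genes 4 did. Such genes were 349 of the 11602 tested. The families were taken by the start of the symbol, such as Ddx, Dhx, Trim, Parp, H2- and Ly6. Their members were not checked 1 by 1 for a response to interferon, and the helicase Dhx9 is among the 4. Called genes that were on none of the lists used here numbered 230 with a higher and 644 with a lower level. How many tested genes lay off every list was not counted, so these numbers have no background and give no measure of breadth.

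The genes that rose were poorer in GC than the rest. Median transcript GC content was 44.3% in the higher genes, 52.7% in the lower genes and 50.2% in all tested genes, with a gene model for 98.6%, 98.8% and 98.9% of them. Among the 2295 genes with the lowest GC content, 33.05% to 44.3%, 5.93% were called higher and 4.79% lower. Among the 2295 with the highest, from 55.9%, 1.09% were called higher and 10.3% lower. Vehicle 3, whose GC-poor transcripts were relatively abundant, held the higher genes at a median of 1.18 times their vehicle mean, and vehicle 2 held them at 0.864 times. When the trend with GC content and length was removed from each library in a fit added after the data were seen, 162 genes were called higher, 137 of them among the 276, and 894 lower, 781 of them among the 904. With the replicate number as a block in that fit the counts were 131 higher, 111 of them shared, and 787 lower, 712 of them shared. A treatment that acts on GC-poor transcripts and a library difference that favours them cannot be told apart here. Without vehicle 3 the number called higher was 511, of which 258 were among the 276, and the number called lower was 945.

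**Figure D1:**
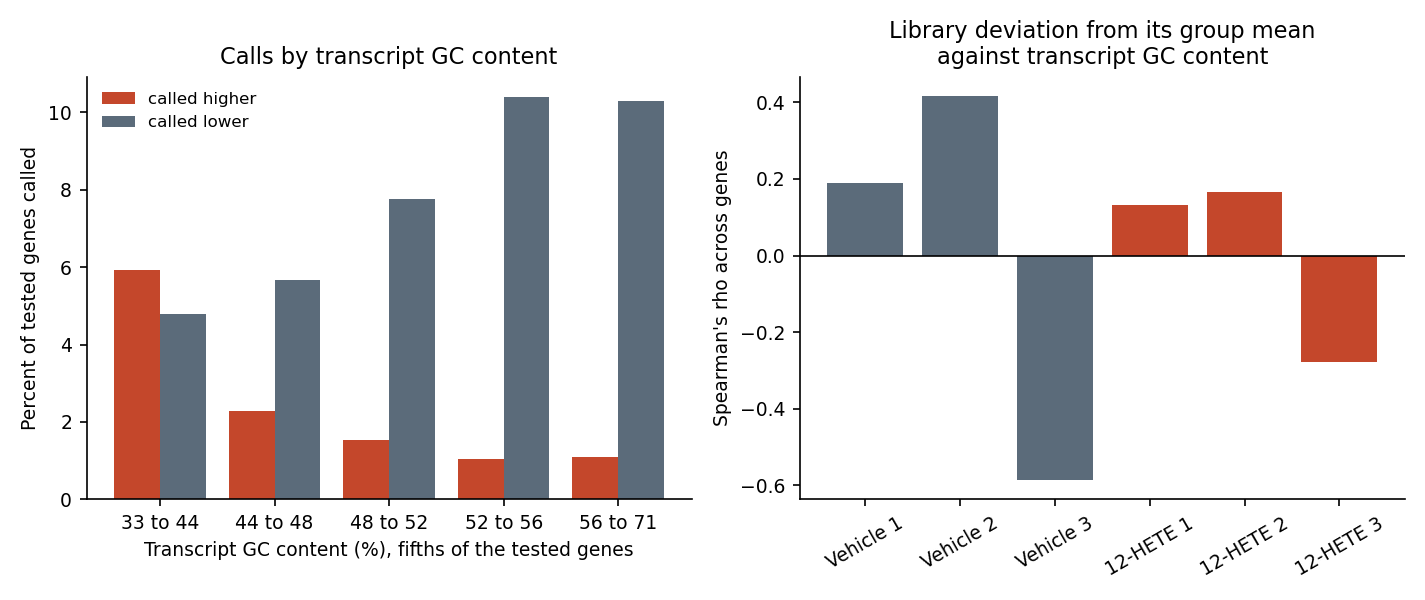
Left, percent of tested genes called higher or lower with 12-HETE in 5 equal bins of transcript GC content. Right, Spearman's rho, across genes with a mean of at least 100 normalised counts, between a library's deviation from its group mean and transcript GC content; the share called higher falls from 5.93% to 1.09% from the GC-poorest to the GC-richest bin, and vehicle 3 has the lowest rho, -0.59.

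The plot of the lists shows the mitochondrially encoded subunits, the lipid synthesis lists and the mitosis list at the top, and the histone, interferon, immediate early and antigen presentation lists at the bottom. In it, 12-HETE libraries lie closer to each other than vehicle libraries do in the mitosis and cholesterol lists.

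**Figure D2:**
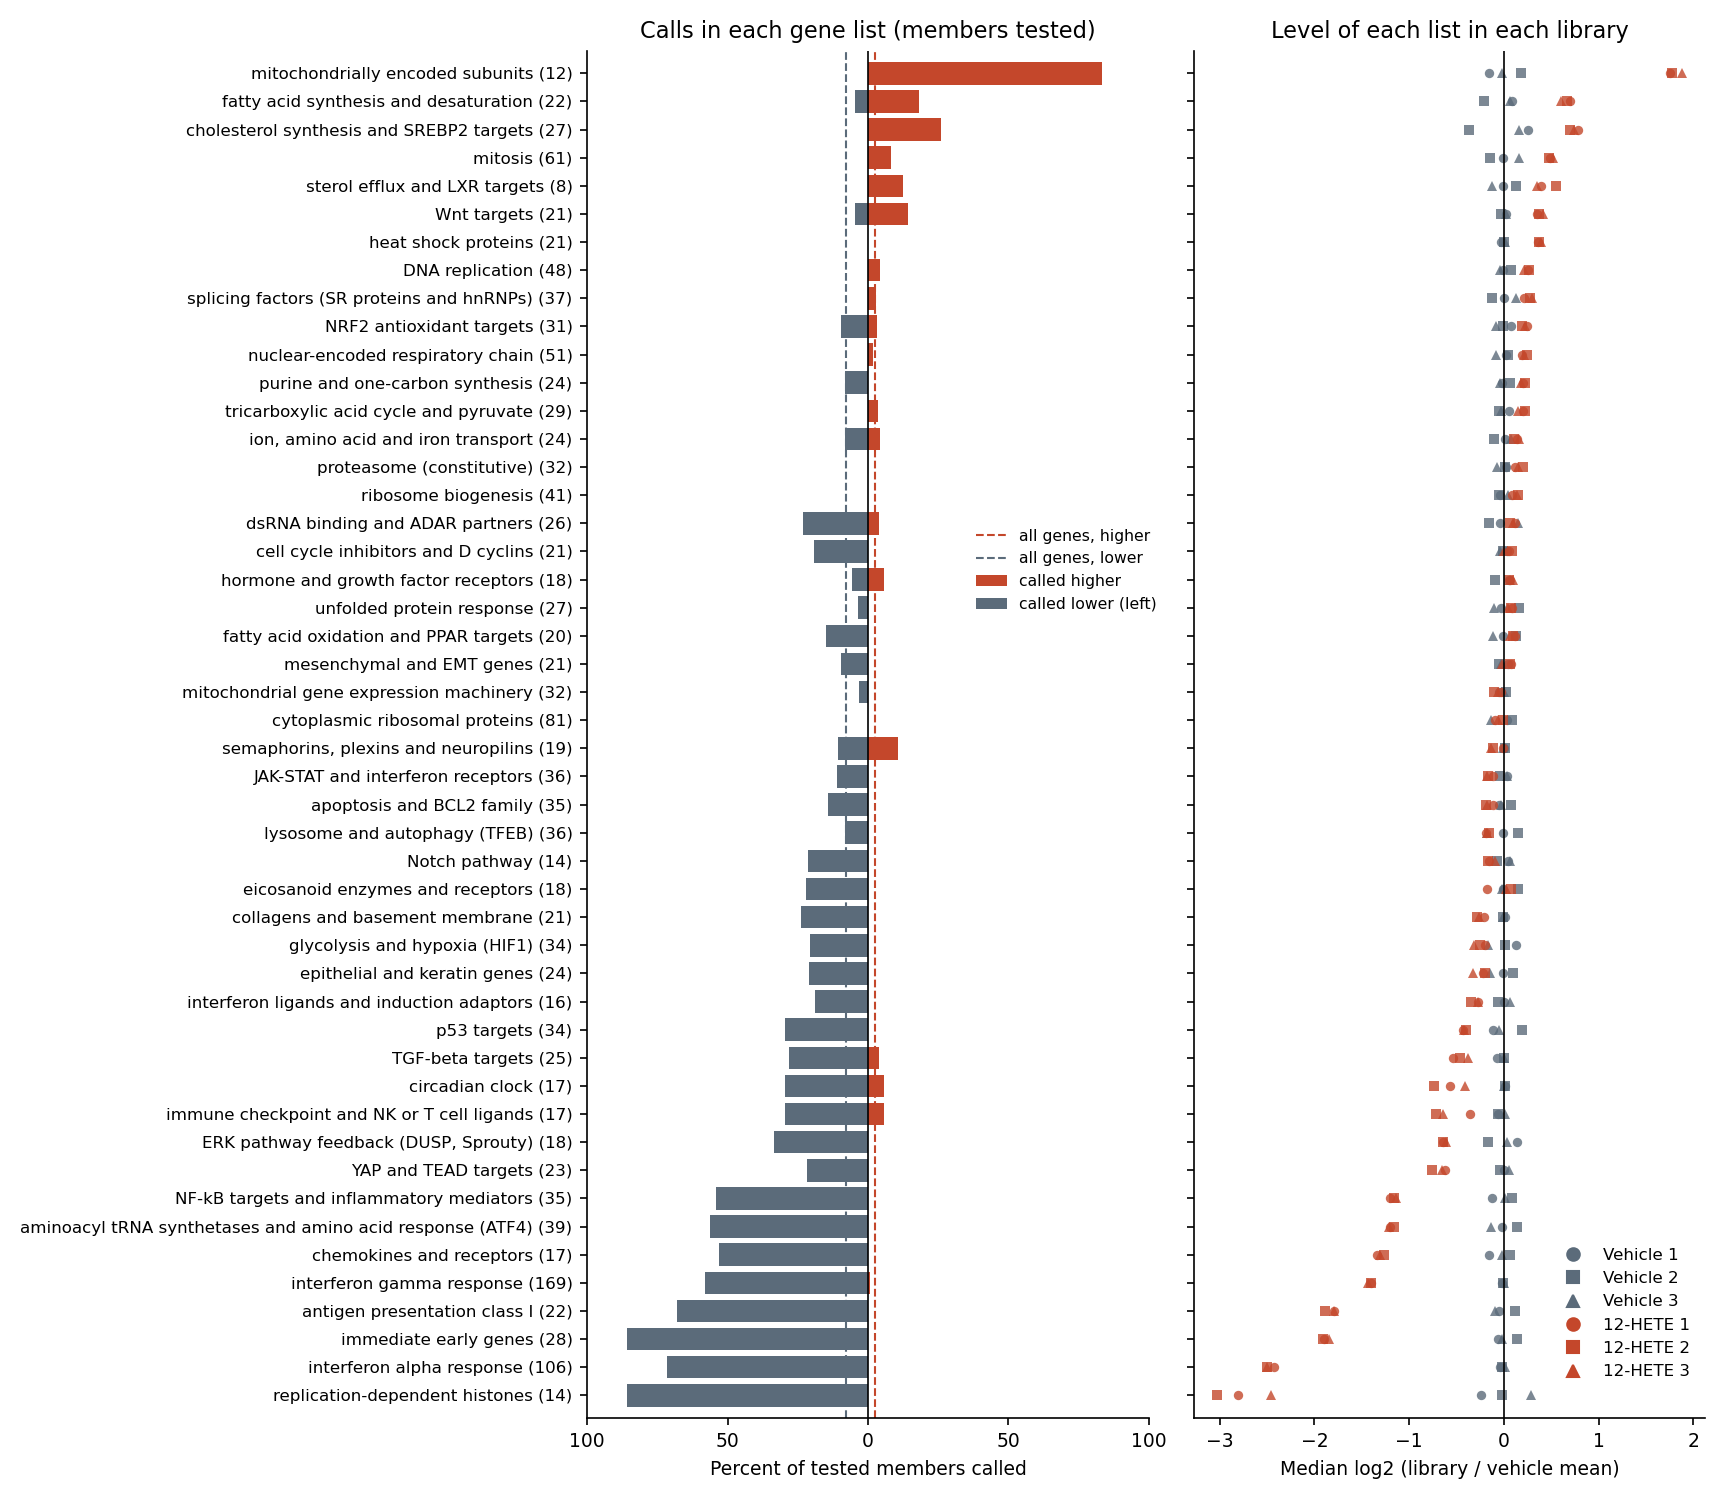
Left, percent of the tested members of each list (number tested in brackets) called higher, to the right, or lower, to the left, with the percent over all tested genes as dashed lines. Right, for each of the 6 libraries, the median over members of log2 of the normalised count (plus 0.5) over the vehicle mean; the median log2 fold change of the lists runs from 1.79 for mitochondrially encoded subunits to -2.75 for replication-dependent histones.

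Transcripts of the mitochondrial genome rose as a group. This genome encodes subunits of respiratory complexes I, III and IV and of ATP synthase, transcribed as long precursors that are cut at the tRNAs between them. Of 12 tested members 10 were called higher, against 2.38% of all genes, and all 12 had a log2 fold change above 0, with a median of 1.79. Their share of all counts was 0.718% to 0.816% in vehicle libraries and 2.24% to 2.45% in 12-HETE libraries, with no overlap.

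**Figure D3:**
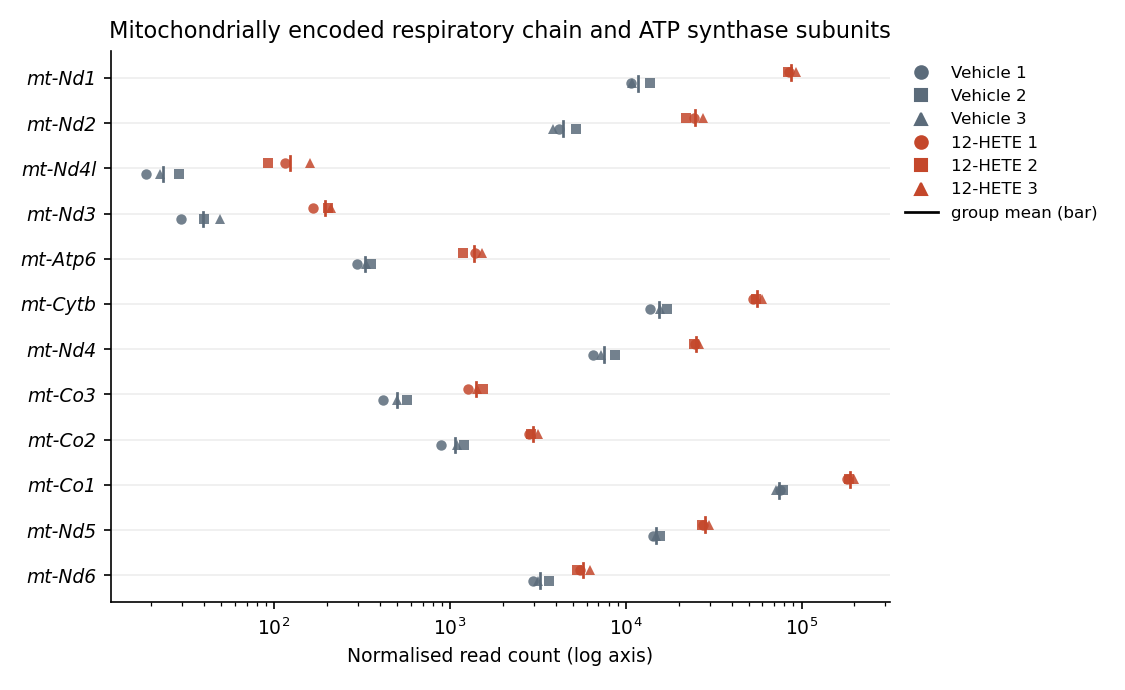
Normalised read counts on a log axis of the 12 tested mitochondrially encoded subunits in the 3 vehicle and the 3 12-HETE libraries, ordered by log2 fold change, with a bar at each group mean. Each subunit is higher in every 12-HETE library than in every vehicle library, from mt-Nd1 (2.89) to mt-Nd6 (0.81).

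mt-Nd1, a complex I subunit at chrM:2751-3707, had the largest change. Its counts were 10705, 13797 and 10878 with vehicle and 84565, 83668 and 93407 with 12-HETE, a log2 fold change of 2.89 ± 0.13. mt-Nd2 changed by 2.49 ± 0.14, mt-Nd4l by 2.39 ± 0.33 and mt-Nd3 by 2.29 ± 0.25, all of them complex I subunits. mt-Atp6 of ATP synthase changed by 2.05 ± 0.14, mt-Cytb of complex III by 1.84 ± 0.11 and mt-Nd4 by 1.75 ± 0.12. The cytochrome oxidase subunits rose by less, with 1.51 ± 0.15 for mt-Co3, 1.47 ± 0.13 for mt-Co2 and 1.34 ± 0.08 for mt-Co1. A pair of neighbouring complex I subunits stayed under the fold threshold, with 0.92 ± 0.08 for mt-Nd5 and 0.81 ± 0.12 for mt-Nd6, the latter being the one subunit made from the light strand. mt-Atp8, the remaining subunit, did not reach the count minimum and was not tested. With the trend in GC content and length removed 7 of the 12 were called and the median was 1.22, mt-Co1, mt-Co2 and mt-Co3 losing the call, and mt-Nd6 lay at -0.01. The GC content of these transcripts, with a median of 37.4%, lies in the GC-poorest of the 5 bins, and near-identical copies of mitochondrial sequence in the nuclear genome make the split of their reads uncertain.

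The nuclear genes that work with these subunits gave few calls. Of 51 tested nuclear-encoded respiratory chain genes, 1 was called higher and 0 lower, and the median log2 fold change was 0.20. A log2 fold change above 0 was found for 46 of them, and an unadjusted p under 0.05 (DESeq2) for 24. The share called higher was 1.96%, against 2.38% of all genes. The gene called was Cox7b, a subunit of cytochrome oxidase, with 1113, 985 and 1194 counts with vehicle and 2122, 2366 and 2313 with 12-HETE (1.05 ± 0.11). Uqcrh, the hinge protein of complex III that lies outside that list, rose by 1.23 ± 0.11 on the log2 scale, from 1277 ± 120.1 to 2999.8 ± 125 counts (SD, n = 3). Of 32 genes of mitochondrial transcription, RNA processing and translation 0 were called higher, and Lonp1, the matrix protease, fell by 1.19 ± 0.17. Cox7b, Uqcrh and Lonp1 lost their calls with the GC and length trend removed. Of 29 genes of the tricarboxylic acid cycle and pyruvate entry 1 was called higher, 3.45% against 2.38% of all genes. It was Idh1, the cytosolic NADP-dependent isocitrate dehydrogenase, at 1.04 ± 0.11, which was not called with that trend removed. The single higher calls in the nuclear respiratory and tricarboxylic acid lists, and those of Hnrnpa3, Clock and Dhx9 in other lists, were not made without vehicle 2.

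A share of the lipid synthesis genes rose. Of 27 tested genes of cholesterol synthesis and SREBP2 targets 7 were called higher, 25.9% against 2.38% of all genes, and 0 lower. All 27 had a log2 fold change above 0, with a median of 0.62. Of 22 genes of fatty acid synthesis and desaturation 4 were called higher and 1 lower, with a median of 0.67. The shares were 18.2% and 4.55%, against 2.38% and 7.79% of all genes. Among the vehicle libraries the cholesterol list was lowest in vehicle 2, at a median of -0.37 log2 units from the vehicle mean, against 0.26 and 0.16 in vehicle 1 and 3. Without vehicle 2 the number of cholesterol genes called fell from 7 to 3 and the median was 0.47. With the GC and length trend removed 5 were called and the median was 0.66.

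Idi1, which isomerises isopentenyl diphosphate on the way to sterols, had 76.2, 21.02 and 111 normalised counts with vehicle and 277, 289.8 and 279 with 12-HETE. The log2 fold change was 2.03 ± 0.42 (adjusted p 7.45e-06). Acat2, a cytosolic thiolase that makes acetoacetyl-CoA, had 231, 154 and 220.1 with vehicle and 496, 416 and 474 with 12-HETE (1.20 ± 0.18). Mvd, the mevalonate diphosphate decarboxylase, had 144, 72.6 and 97.2 with vehicle and 249, 209.9 and 215 with 12-HETE (1.10 ± 0.25), and Hsd17b7, which reduces sterol ketones, 189, 131 and 211 with vehicle and 364, 397 and 395 with 12-HETE (1.12 ± 0.19). In each of these 4 genes vehicle 2 was lowest and no vehicle library reached a 12-HETE library. The other 3 called members, Dhcr7, Fdps and Nsdhl, named here to complete the count after their values were seen, had log2 fold changes of 1.29, 1.40 and 1.00, and Fdps had at most 22.5 normalised counts with vehicle.

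In the fatty acid list, elongases and a desaturase gave 3 of the 4 higher calls. Elovl6, which elongates saturated fatty acids, had 805, 527 and 1085 with vehicle and 2559, 2666 and 2720.1 with 12-HETE (1.72 ± 0.22). Elovl5, the elongase of polyunsaturated fatty acids including those near arachidonic acid, had 1016, 764 and 975 with vehicle and 2325, 2167 and 2220.1 with 12-HETE (1.28 ± 0.13). Scd2, a stearoyl-CoA desaturase, had 20525, 8470.3 and 17365 with vehicle and 44835, 42207 and 43107 with 12-HETE (1.49 ± 0.25), with vehicle 2 at the bottom again. Acacb, the acetyl-CoA carboxylase that restrains fatty acid oxidation at mitochondria, fell, from 123 ± 3.97 to 32.9 ± 4.76 (-1.90 ± 0.25). Abca1, which exports cholesterol and is induced by LXR, rose from 312 ± 106 to 954 ± 86.3 (1.61 ± 0.23). On the oxidation and PPAR side 3 of 20 genes were called lower, 15% against 7.79% of all genes, and 0 higher. These were Plin2, a coat protein of lipid droplets, at -1.34 ± 0.11, Vldlr, a lipoprotein receptor, at -1.53 ± 0.16 and Pparg itself at -1.29 ± 0.27.

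The bases just before the annotated start of Mvd are shown because CCAAT boxes, which bind NF-Y, were found in most genes of the cholesterol list. The sequence is from the RefSeq promoter window in GRCm38.p6, chr8:122443423-122443502, minus strand, 5′ to 3′, with matches to CCAAT or its reverse complement in capitals.
Mvd: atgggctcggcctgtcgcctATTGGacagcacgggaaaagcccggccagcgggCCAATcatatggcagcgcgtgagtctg
Of the 19 cholesterol genes with a window, 89.5% held CCAAT on either strand, against 43.5% of the 9080 tested genes with one and 41.1% of all windows by gene. Among other lists with a raised median, the share was 80% in the mitosis list and 64.7% in the fatty acid synthesis list. It was 85.7% in the circadian clock list, whose median log2 fold change was -0.55. In the unfolded protein response list, with a median of 0.06, it was 81.8%. The sterol response element in the form TCACNCCAC was found in 5.26% of the cholesterol genes and 1.38% of tested genes. Among all called genes with a window, 51.6% of those higher held CCAAT, and 44.6% of those lower. A match describes these letters and not a bound site.

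A few cell division genes rose, by small steps. Of 61 tested mitosis genes 5 were called higher, 8.2% against 2.38% of all genes, and 0 lower. A log2 fold change above 0 was found for 56 and the median was 0.47. Of 48 DNA replication genes 2 were called higher, 4.17% against 2.38% of all genes, and 0 lower, with a median of 0.25. Mad2l1, a spindle checkpoint protein, had 1551, 1397 and 1734 normalised counts with vehicle and 3082, 3372 and 3309 with 12-HETE (1.06 ± 0.11). Mki67, the proliferation antigen Ki-67, had 3871, 2915 and 7313 with vehicle and 10552, 10295 and 11638 with 12-HETE (1.20 ± 0.41, adjusted p 0.00999), with vehicle 3 far above the other vehicle libraries. Smc2, a condensin subunit, had 1523, 1162 and 2399 with vehicle and 3803, 3774 and 3996 with 12-HETE (1.19 ± 0.22). Kif20b, a kinesin of cytokinesis, had 896, 562 and 1696 with vehicle and 2366, 2385 and 2548 with 12-HETE (1.21 ± 0.46, adjusted p 0.0217). The replication genes called were Ccne2, a cyclin of S phase entry (1.32 ± 0.18), and Pola1, the catalytic subunit of primase-associated polymerase alpha (1.00 ± 0.20). With the GC and length trend removed they stood at 0.74 and 0.57 and were not called. The number of mitosis genes called was 13 without vehicle 3, 0 without vehicle 2 and 0 with the GC and length trend removed, where the median was 0.35. With the block added to that fit Mki67 was called.

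Mitosis genes are known for a pair of promoter elements, CCAAT and the cell cycle homology region TTTGAA. Upstream stretches of Mki67 (GRCm38.p6, chr7:135716445-135716504, minus strand) and Smc2 (chr4:52439049-52439108, plus strand) are shown, 5′ to 3′, with matches to TTTGAA on either strand in capitals.
Mki67: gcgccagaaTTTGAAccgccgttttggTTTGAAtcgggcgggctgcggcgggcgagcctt
Smc2: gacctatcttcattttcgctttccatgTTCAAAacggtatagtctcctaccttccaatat
TTTGAA was found in 76% of 50 mitosis genes with a window, 14.4% of tested genes, 19.8% of called higher genes and 16.2% of called lower genes, and in 20.2% of all windows by gene. The E2F motif, TTTGGCGC or TTTCGCGC, was found in 30.8% of 39 DNA replication genes and 1.86% of tested genes.

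The tested transcripts of replication-dependent histones mostly fell. Of 14 tested members 12 were called lower, against 7.79% of all genes, and the median log2 fold change was -2.75. Hist1h1c, a linker histone, had 2489, 3516 and 2869 normalised counts with vehicle and 288, 366 and 339.5 with 12-HETE (-3.16 ± 0.16). Hist1h1d, another linker histone, had 322, 271 and 433 with vehicle and 5.13, 4.93 and 3.94 with 12-HETE (-6.20 ± 0.45). The core histones Hist1h2bc and Hist1h2ac had -2.62 ± 0.23 and -3.26 ± 0.43. Hist2h2be, a core histone outside the list that was named after its value was seen, was called higher, at 1.17. These genes have near-identical relatives, so the split of reads between them is uncertain, and the 14 tested were part of 55 listed. The labels and the methods name different library kits, and how fully the libraries captured histone RNA was not tested.

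The genes that rose with the largest statistics came from many functions. Apela, a peptide ligand of the apelin receptor at chr8:65028417-65037336, had 73.2, 52.6 and 73.7 normalised counts with vehicle and 426, 380.4 and 405 with 12-HETE (2.61 ± 0.18, adjusted p 6.80e-44). Tfrc, the transferrin receptor that brings iron into the cell, had 1177, 1000.5 and 1797 with vehicle and 5633, 5633 and 5809 with 12-HETE (2.10 ± 0.20). Ulbp1, a stress ligand of the NK cell receptor NKG2D, had 732, 849.5 and 1098 with vehicle and 2771, 2929 and 3331 with 12-HETE (1.75 ± 0.16). In Tfrc and Ulbp1 vehicle 3 was the highest vehicle library.

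Lgr5, the R-spondin receptor and a Wnt target, had 774, 512 and 1012 with vehicle and 3170.2, 3019 and 3193 with 12-HETE (2.03 ± 0.21). Spon1, a secreted matrix protein, had 36.6, 31.5 and 45.04 with vehicle and 181, 161 and 204 with 12-HETE (2.27 ± 0.24). Lrp1, a large endocytic receptor for lipoproteins and proteases, had 6589.5, 6173 and 6653 with vehicle and 13564, 12917 and 13741 with 12-HETE (1.05 ± 0.08). Lrp1 differs from most of the risers in being rich in GC, at 57.9%, and its log2 fold change was 1.13 with the GC and length trend removed and replicates as a block. Mmgt1, a membrane protein of the ER membrane complex, rose by 1.61 ± 0.14, Hexim1, an inhibitor of transcription elongation, by 1.04 ± 0.09 and Pcolce2, an enhancer of procollagen processing, by 1.34 ± 0.12.

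The rest of the 15 risers with the largest statistics outside the mitochondrial genome were these. Chp1, a calcium-binding partner of sodium-proton exchangers, rose by 1.15 ± 0.09, S100a11, a calcium-binding S100 protein, by 1.11 ± 0.10 and Calm2, a calmodulin gene, by 1.03 ± 0.10. Tspan12, a tetraspanin of Norrin and Wnt receptor signalling, rose by 1.35 ± 0.10, Pclaf, a PCNA-binding factor, by 1.31 ± 0.13 and Impad1, a Golgi phosphatase, by 1.37 ± 0.14. With the GC and length trend removed and replicates as a block, 8 of the 15 were still called. Chp1, Tspan12, Uqcrh, S100a11, Pclaf, Impad1 and Calm2 were not. All 10 of the risers with the largest fold changes were called in that fit, and so were 28 of the 50 higher genes named here.

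**Figure D4:**
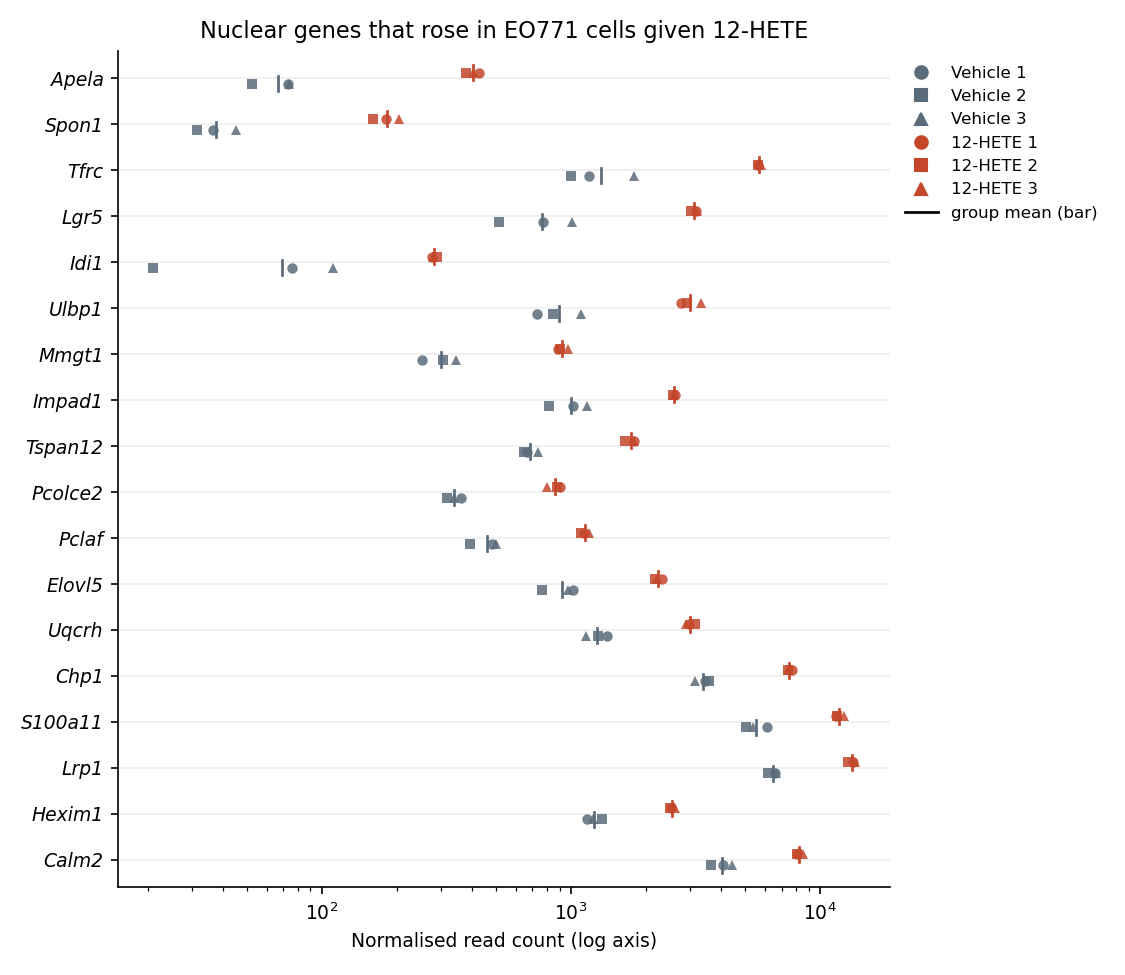
Normalised read counts on a log axis of the 18 nuclear genes that were among the 15 with the largest statistics or the 10 with the largest fold changes, in the 3 vehicle and 3 12-HETE libraries, with a bar at each group mean. Apela has the largest log2 fold change, 2.61, and Calm2 the smallest, 1.03, and the 12-HETE libraries lie close together in each gene.

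A few Wnt targets rose. Of 21 tested members 3 were called higher, Lgr5, Notum and Ror1, and 1 lower, Dkk2, with a list median of 0.38. The shares were 14.3% higher and 4.76% lower, against 2.38% and 7.79% of all genes. Notum, a secreted enzyme that inactivates Wnt proteins, had 132, 170.1 and 128 with vehicle and 376, 343 and 264 with 12-HETE (1.19 ± 0.20), and Ror1, a Wnt5a receptor, had 41.6, 24.8 and 36.9 with vehicle and 108, 95.6 and 121 with 12-HETE (1.65 ± 0.28). Dkk2, a secreted Wnt antagonist, had -1.67 ± 0.50 at low counts of 20.8, 37.3 and 27.6 with vehicle. Among semaphorins, plexins and neuropilins 2 of 19 were called higher and 2 lower, each 10.5%, against 2.38% and 7.79% of all genes. The higher genes were Nrp1 (1.42 ± 0.22), the co-receptor of class 3 semaphorins and VEGF, and Plxna2 (1.04 ± 0.15). Plxna2, a plexin, was not called with the GC and length trend removed. The lower genes were Plxnb1 (-1.18 ± 0.12) and Sema7a (-1.44 ± 0.26). In the NRF2 list Nqo1, a quinone reductase, rose by 1.02 ± 0.18 but was not called with the GC and length trend removed, while Hmox1, the haem oxygenase, fell by 1.39 ± 0.23, Osgin1 fell by 1.32 ± 0.24 and Slc7a11, the cystine importer, fell by 1.28 ± 0.20.

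Genes of the amino acid response fell. Of 39 tested aminoacyl-tRNA synthetases and ATF4 targets 22 were called lower and 0 higher, against 7.79% and 2.38% of all genes, with a median of -1.19. Chac1, which degrades glutathione, had 2056, 2399 and 1902 normalised counts with vehicle and 43.1, 38.4 and 41.3 with 12-HETE, a 51.8-fold lower mean (-5.69 ± 0.18). Trib3, a pseudokinase, had 3307, 4467 and 2960.5 with vehicle and 155, 144 and 131 with 12-HETE (-4.64 ± 0.18). Gdf15, a secreted stress hormone, had 2669, 3861 and 2579.7 with vehicle and 269, 314 and 277 with 12-HETE (-3.40 ± 0.18), and Nupr1, a stress-induced chromatin protein, 544, 757 and 496 with vehicle and 19.5, 36.5 and 32.5 with 12-HETE (-4.34 ± 0.26). The list had 22 calls without vehicle 3 and 21 with the GC and length trend removed.

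The unfolded protein and heat shock lists gave few calls. In the unfolded protein response list 1 of 27 was called lower, 3.7% against 7.79% of all genes, and the median was 0.06. It was Herpud1, a factor of ER-associated degradation (-1.36 ± 0.11). Of 21 heat shock genes 0 were called by DESeq2 or edgeR. An unadjusted p under 0.05 was found for 16, and small changes were common over all genes, as given above. The members with the largest statistics, Hspb8 at -0.69 ± 0.09 and Dnaja1 at 0.74 ± 0.10, were under the fold threshold. Mthfd2, a mitochondrial folate enzyme that ATF4 also induces, fell by 1.35 ± 0.11, and Slc6a9, a glycine importer, fell by 3.24 ± 0.24. Sesn2, Ddit4 and Btg2, which are shared between p53 and other stress responses, had log2 fold changes of -1.70 ± 0.13, -2.02 ± 0.15 and -2.17 ± 0.14, all called lower. In the p53 list 10 of 34, or 29.4% against 7.79% of all genes, were called lower and 0 higher, with a median of -0.47.

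A composite CEBP-ATF element, TTGCATCA, is known as a motif through which ATF4 acts. Stretches with it are shown for Chac1 (GRCm38.p6, chr2:119351023-119351082, plus strand), Atf3 (chr1:191183410-191183469, minus strand) and Slc7a11 (chr3:50443627-50443686, minus strand), 5′ to 3′, with matches on either strand in capitals.
Chac1: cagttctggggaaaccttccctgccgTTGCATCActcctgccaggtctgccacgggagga
Atf3: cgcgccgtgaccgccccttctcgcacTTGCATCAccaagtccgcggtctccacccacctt
Slc7a11: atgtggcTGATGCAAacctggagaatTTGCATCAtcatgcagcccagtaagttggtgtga
The element was found in 9 of 32 genes of the ATF4 list with a window, 28.1%, against 0.804% of tested genes, 2.2% of called lower genes, 1.04% of called higher genes and 1.03% of all windows by gene. Slc7a11 held it in both orientations within 60 bases. As with CCAAT, a match describes letters and not a bound site.

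Immediate early genes were nearly all lower. Of 28 tested members 24 were called lower and 0 higher, with a median of -1.91. Atf3, a repressor of the ATF family, had 4005, 4693 and 4047 normalised counts with vehicle and 317, 359 and 293 with 12-HETE (-3.72 ± 0.12). Zfp36, which destabilises cytokine mRNAs, had 2620.4, 2549 and 2579 with vehicle and 378, 355 and 374 with 12-HETE (-2.81 ± 0.09). Junb, an AP-1 subunit, had 8951, 10451 and 9332 with vehicle and 1932, 2101 and 2123 with 12-HETE (-2.22 ± 0.10). Myc, the growth regulator, had 11433, 9485 and 11043 with vehicle and 1744, 1675 and 1716 with 12-HETE (-2.64 ± 0.10), and Csrnp1, a nuclear protein of the same response, -2.88 ± 0.10. In the ribosome biogenesis list, which Myc is known to induce, 0 of 41 were called by DESeq2 or edgeR and the median was 0.13. An unadjusted p under 0.05 was found for 19 of the 41. Over all 11602 tested genes, 2637 were higher and 2813 lower at an adjusted p under 0.05 alone. A link of this list to the fall of Myc was not tested.

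In the growth factor and kinase feedback lists most members were not called. Of 18 genes of ERK feedback 6 were called lower, 33.3% against 7.79% of all genes, and 0 higher. Dusp5, a nuclear ERK phosphatase, fell by 1.87 ± 0.09, Fosl1, an AP-1 subunit stabilised by ERK, fell by 2.28 ± 0.13, and the EGF receptor ligands Areg and Hbegf were called lower at -2.87 ± 0.20 and -1.37 ± 0.09. Of 25 TGF-beta targets 7 were called lower and 1 higher, 28% and 4%, against 7.79% and 2.38% of all genes. The higher one was the receptor Tgfbr1 at 1.21, named after its value was seen and not called with the GC and length trend removed. Of 23 YAP and TEAD targets 5 were called lower, 21.7% against 7.79% of all genes, with Ankrd1 at -1.42 ± 0.13, Ctgf at -1.30 ± 0.15 and Cyr61 at -1.29 ± 0.15. With the GC and length trend removed, which left out Ctgf and Cyr61 for want of a gene model under those names, 3 were called. Among Notch genes Hes1, the main Notch target, fell by 1.26 ± 0.12, Notch1 fell by 1.14 ± 0.13 and the ligand Dll1 fell by 2.47 ± 0.38. That made 3 of 14 called lower, 21.4% against 7.79% of all genes.

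Inflammatory mediators fell. Of 35 NF-kB targets and inflammatory mediators 19 were called lower and 0 higher, with a median of -1.18. By list or symbol family 10 of the 35 were also counted as interferon genes. Traf1, an adaptor of TNF receptors, had 666, 921 and 783 normalised counts with vehicle and 20.5, 26.6 and 35.4 with 12-HETE (-4.84 ± 0.24). Tnfaip3, the NF-kB inhibitor A20, had 1411, 1310.1 and 1674 with vehicle and 200.3, 193 and 194 with 12-HETE (-2.90 ± 0.14). Lif, a cytokine of the IL-6 family, fell by 2.44 ± 0.11 and Ier3 fell by 1.79 ± 0.11. Of 17 chemokine genes and receptors 9 were called lower and 0 higher. Ccl2, which attracts monocytes, had 1855, 1857 and 2418 with vehicle and 377, 439.6 and 306 with 12-HETE (-2.45 ± 0.17), Cxcl16 fell by 1.30 ± 0.08 and the decoy receptor Ccrl2 fell by 4.09 ± 0.31. Cxcl10, which attracts T cells and is also interferon induced, had 3960.3, 3072 and 4853 with vehicle and 71.9, 76.9 and 62.00 with 12-HETE (-5.82 ± 0.20).

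Most class I antigen presentation genes fell. Of 22 tested 15 were called lower and 0 higher, with a median of -1.83. By list or symbol family, which takes in every H2- symbol, 18 of the 22 were also counted as interferon genes. Tap1, the peptide transporter, had 5277, 5777 and 4781 with vehicle and 408, 386 and 385 with 12-HETE (-3.75 ± 0.11), and Psmb9, an immunoproteasome subunit whose exons overlap those of Tap1, -4.60 ± 0.24. Tapbp, the tapasin chaperone, fell by 2.70 ± 0.11 and H2-Q4, a non-classical class I gene with close relatives, fell by 2.70 ± 0.12. Of 32 constitutive proteasome genes 0 were called by DESeq2 or edgeR. An unadjusted p under 0.05 was found for 15, and small changes were common over all genes, as given above. In the list of checkpoint and NK or T cell ligands 5 of 17 were called lower and 1 higher. The shares were 29.4% and 5.88%, against 7.79% and 2.38% of all genes. Cd274, which encodes PD-L1, had 634, 629 and 945 with vehicle and 73.9, 109 and 105 with 12-HETE (-2.93 ± 0.22), Lgals9, galectin-9, fell by 2.03 ± 0.12 and Tnfsf10, the death ligand TRAIL, fell by 2.93 ± 0.35. Ulbp1 was the member that rose. Without vehicle 2 the number called lower in this list was 3.

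The 15 genes with the largest statistics called lower outside the interferon genes had log2 fold changes from -5.71 to -2.22. Besides those above they included Hap1, a huntingtin-associated transport protein, Tor3a, an ATPase of the ER, Gtpbp2, a GTPase that rescues stalled ribosomes, Spats2l, Shisa5, Mpeg1 and Daxx. Hap1 had 2475, 2395 and 2432 with vehicle and 209, 172 and 175 with 12-HETE (-3.71 ± 0.12). Mpeg1, a pore-forming protein best known from macrophages, had 1891, 1479 and 2272 with vehicle and 48.3, 27.6 and 32.5 with 12-HETE (-5.71 ± 0.24), while the macrophage markers Cd68 and Csf1r did not pass the test (0.11 ± 0.15 and -0.33 ± 0.54) and Adgre1 had at most 2 counts in a library. All 15 were still called with the GC and length trend removed. Some of them, such as Tor3a, Shisa5 and Daxx, are known to respond to interferon although they were on no list used here.

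**Figure D5:**
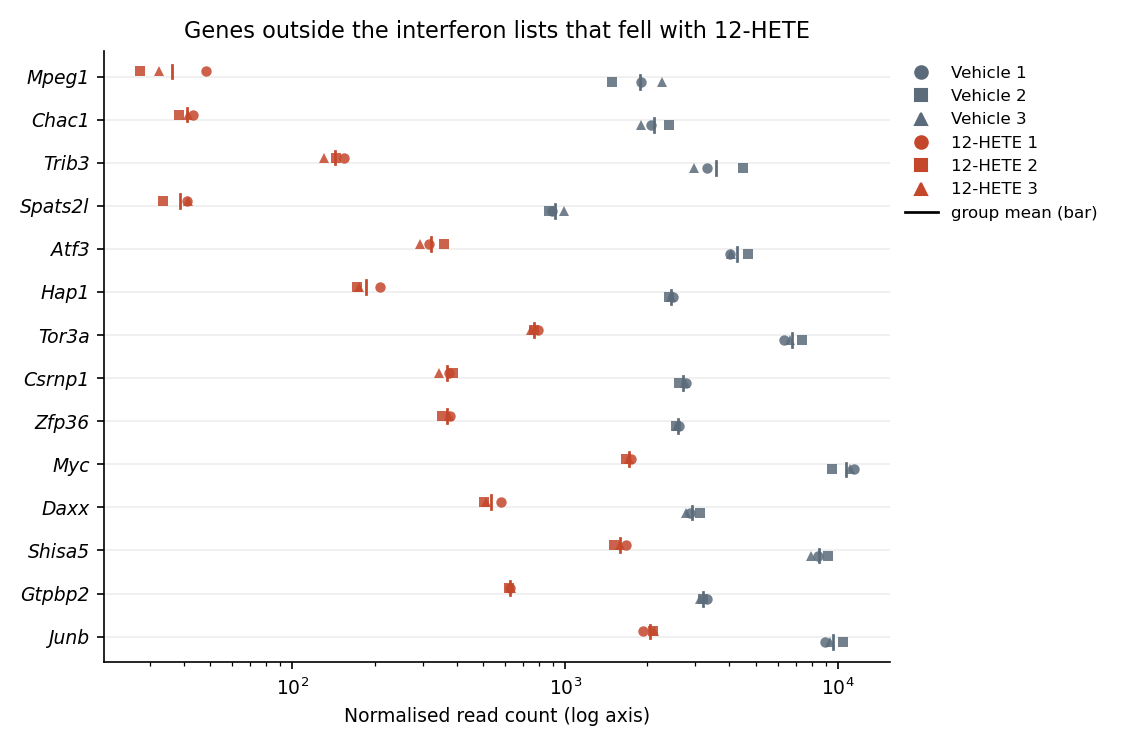
Normalised read counts on a log axis of 14 of the 15 genes outside the interferon lists and families with the largest statistics among those called lower, in the 3 vehicle and 3 12-HETE libraries, with a bar at each group mean. The log2 fold changes run from -5.71 (Mpeg1) to -2.22 (Junb).

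Some hypoxia genes fell. Of 34 tested members of that list 7 were called lower, 20.6% against 7.79% of all genes, and 0 higher, with a median of -0.26. Bnip3, a mitophagy receptor, had 722, 860.0 and 531 with vehicle and 174, 93.6 and 87.6 with 12-HETE (-2.58 ± 0.27), Ndrg1 fell by 2.36 ± 0.19 and Vegfa, the angiogenic factor, fell by 1.76 ± 0.16. In the circadian list 5 of 17 were called lower and 1 higher, 29.4% and 5.88%, against 7.79% and 2.38% of all genes. The lower genes included Per1 at -1.45 ± 0.09, Nfil3 at -1.74 ± 0.14, Bhlhe40 at -1.22 ± 0.14 and Ciart at -2.18 ± 0.33. Clock, named after its value was seen, was called higher at 1.05, though not with the GC and length trend removed or without vehicle 2. Among cell death genes 5 of 35 were called lower, 14.3% against 7.79% of all genes, and 4 with the replicate number as a block. By list or symbol family 5 of the 35 were also counted as interferon genes. Casp4, the caspase of cytosolic endotoxin sensing, had -2.01 ± 0.17 and Gsdmd, its pore-forming substrate, -1.42 ± 0.17. The pro-apoptotic Bbc3 and Bmf had -1.82 ± 0.17 and -2.79 ± 0.42. Cdkn1a, the cell cycle inhibitor p21, had 4651, 8299 and 4205 with vehicle and 2290.1, 2268 and 2273 with 12-HETE (-1.33 ± 0.23).

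Of 24 epithelial and keratin genes 5 were called lower, 20.8% against 7.79% of all genes, and 0 higher. Grhl2, a master regulator of epithelial identity, had 316, 308 and 444 with vehicle and 30.8, 23.7 and 33.5 with 12-HETE (-3.60 ± 0.26), Cldn4 fell by 2.48 ± 0.31, and Cdh1, E-cadherin, had at most 60.2 normalised counts (-1.95 ± 0.56). Of 21 mesenchymal genes 2 were called lower, 9.52% against 7.79% of all genes. These were the metalloproteinase Mmp3 (-1.41 ± 0.55), which was not called with the replicate number as a block, and the tropomyosin Tpm2 (-1.13 ± 0.22). Tpm2 was not called with the GC and length trend removed. Of 21 collagen and basement membrane genes 5, or 23.8%, were called lower, with the laminin chain Lama3 at -2.83 ± 0.48 and Col6a3 at -4.18 ± 0.66. Dcn, the matrix proteoglycan decorin, had 9665, 6816 and 10767 with vehicle and 18370.2, 17995 and 18838 with 12-HETE (1.02 ± 0.16), and Pdgfra, a growth factor receptor, 64.3, 82.2 and 80.9 with vehicle and 193, 178 and 161 with 12-HETE (1.23 ± 0.20). Both are also fibroblast markers, and the summed CPM of the 8 listed fibroblast and pericyte markers was 390 to 613 with vehicle and 997 to 1037 with 12-HETE, nearly all of it from Dcn. The listed markers besides Dcn and Pdgfra were low. Lum was at 0 in every library, Col3a1 and Pdgfrb had at most 1 count, Rgs5 at most 4, Acta2 at most 5 and Cspg4 at most 6. With the GC and length trend removed Dcn was not called. Of the endothelial markers Vwf and Pecam1 passed the minimum and were called lower, at -2.02 ± 0.55 and -1.79 ± 0.44, with a summed CPM over 8 markers of 3.35 to 6.96 with vehicle and 1.18 to 1.41 with 12-HETE, while Cldn5 and Emcn were at 0. The 10 leukocyte markers summed to 15.5 to 20.02 and 17.6 to 18.7 CPM, and Cd3e and Ncr1 were among those at 0. The 6 platelet and erythroid markers summed to 51.1 to 74.9 and 84.0 to 87.8 CPM, mostly from Ppbp, and Hbb-bs was at 0. The part of other cells in these results was not tested.

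Enzymes and receptors of eicosanoids, the family of 12-HETE, were mostly under the count minimum. Of 44 listed genes with a line in the counts, 18 were tested. Of these 4 were called lower, 22.2% against 7.79% of all genes, and 0 higher. Alox12, which encodes platelet-type 12-lipoxygenase, had at most 4 counts in a library, and Gpr31b, a reported receptor of 12-HETE, had 0 in all 6, which allows up to 3 counts per library, counting error only. Aloxe3, an epidermal lipoxygenase, had 96.98, 77.4 and 93.2 with vehicle and 18.5, 18.7 and 10.8 with 12-HETE (-2.48 ± 0.34). Ffar4, a receptor of long-chain fatty acids, had 80.2, 132 and 59.4 with vehicle and 27.7, 18.7 and 16.7 with 12-HETE (-2.11 ± 0.40), Cyp4f13, a cytochrome of the family that hydroxylates eicosanoids, fell by 1.20 ± 0.20, and Gpr132, a receptor of oxidised fatty acids, fell by 1.12 ± 0.23. Gpr132 was not called with the GC and length trend removed. Ptgs1, cyclo-oxygenase 1, had 0.42 ± 0.15 (adjusted p 0.0163), Lta4h, the leukotriene A4 hydrolase, 0.42 ± 0.18 (adjusted p 0.0354), and Ptges, a prostaglandin E synthase, -0.79 ± 0.33 (adjusted p 0.0411), all under the fold threshold. The prostaglandin transporters Slco2a1 and Abcc4 had 0.39 ± 0.10 and 0.38 ± 0.10, and Ptges3 had 0.34 ± 0.08. Pla2g6, Cysltr1, Ephx1, Ptges2, Ptger1 and Ptgis overlapped between groups, with adjusted p from 0.222 to 0.628.

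Some RNA-sensing genes fell. Of 26 genes of double-stranded RNA binding 6 were called lower and 1 higher, 23.1% and 3.85%, against 7.79% and 2.38% of all genes. By list or symbol family 11 of the 26 were also counted as interferon genes. A log2 fold change above 0 was found for 15 and the median was 0.11. Zbp1, a sensor of left-handed nucleic acid, had 2605, 2065 and 2671 with vehicle and 4.11, 0.99 and 3.94 with 12-HETE. Ifih1 and Ddx58, the sensors MDA5 and RIG-I, were called lower at -2.33 ± 0.18 and -3.03 ± 0.13, and Dhx58, LGP2, fell by 5.02 ± 0.18. The gene called higher, named after its value was seen, was Dhx9, a helicase that unwinds double-stranded RNA, at 1.17. Dhx9 was not called with the GC and length trend removed or without vehicle 2. Of the ligands, Ifnb1 had 8, 14 and 15 counts with vehicle and 0, 3 and 2 with 12-HETE, under the count minimum. The adaptor Myd88 fell by 1.23 ± 0.20 and the receptor Tlr2 fell by 1.51 ± 0.23.

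Ribosomal protein genes gave no call. Of 81 cytoplasmic ribosomal protein genes 0 were called by DESeq2 or edgeR. An unadjusted p under 0.05 was found for 29, and small changes were common over all genes, as given above. The median was -0.07, with log2 fold changes from -0.49 to 0.81. Rpl37a had the highest, with 8844, 8462 and 8622 with vehicle and 14701, 15839 and 14889 with 12-HETE, and Rpl21, whose relatives include many pseudogenes, had 0.60 ± 0.09. In the splicing factor list 1 of 37 was called higher, 2.7% against 2.38% of all genes. It was Hnrnpa3 (1.03 ± 0.17), which was not called with the GC and length trend removed. Of 36 lysosome and autophagy genes 3 were called lower, 8.33% against 7.79% of all genes. Sqstm1, the autophagy receptor p62, fell by 1.49 ± 0.10 and Grn, progranulin, fell by 1.18 ± 0.19. Map1lc3a, an LC3 gene (-1.04 ± 0.27), was not called with the replicate number as a block. The number called lower in this list was 1 without vehicle 2 and 1 with the GC and length trend removed.

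Exons of some named genes overlap another annotated gene, which makes their counts uncertain where strand was not used. Among the higher genes these were mt-Nd1, mt-Nd2, mt-Nd4, mt-Nd4l, mt-Atp6, mt-Co1, mt-Co3, Apela, Tspan12, Mmgt1, Idi1, Elovl6, Scd2, Ccne2, Notum, Nrp1, Pdgfra and Hnrnpa3. Among the lower genes they were Zfp36, Csrnp1, Junb, Hist1h2ac, Cdkn1a, Ndrg1, Bnip3, Sqstm1, Grn, Tap1, Psmb9, Tapbp, H2-Q4, Cd274, Cxcl10, Cxcl16, Dusp5, Fosl1, Notch1, Dll1, Myd88, Dhx58, Grhl2, Lama3, Bhlhe40, Plxnb1 and Slc6a9.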

How the data were processed

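RNA of 6 EO771 samples was sequenced. The labels and the methods of the study name different library kits. The authors mapped reads to GRCm38 with STAR, counted them per gene with featureCounts and deposited raw counts per gene symbol. The strand setting and the use of duplicate removal for these counts are not given in the sources used here. Totals were 17.3 to 18.6 M counts per library. Groups came from the labels.

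Here genes with a mean count of at least 10 were tested with DESeq2 1.42.0 (R 4.3.3; two-sided Wald test, Benjamini-Hochberg adjustment), and a call needed an adjusted p under 0.05 and a fold change over 2. Values after ± are SE for log2 fold changes and SD for counts (n = 3). The p-values rest on the spread between these libraries, with a dispersion per gene shared by both groups although their spread differed. edgeR 4.0.16, limma 3.58.1, other size factors, other count minimums, left-out libraries and, added after the data were seen, fits with the loess trend of each library in GC content and length removed (GENCODE gene models, 11473 genes) were alternatives. Procedures were tested on simulated data. Deviations of same-numbered libraries from their group means correlated at r = 0.13, 0.23 and 0.40 for replicates 1 to 3, and those of other pairs at -0.29 to 0.07. The labels do not state a pairing. The main fit, its counts and its SE leave the replicate number out, and a fit with that number as a block was also run. Replicate 3 of both groups had a negative rho with GC content (-0.59 and -0.28), and its part in these correlations was not tested.

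The members and the 51 gene lists were chosen with earlier results of these data known. Named genes were the 3 markers, the 15 higher genes by statistic outside the mitochondrial genome, the 10 higher genes by fold change with a mean normalised count of at least 50, the 15 lower genes by statistic outside the interferon lists and families, up to 4 called genes per list (up to 2 by statistic where none was called), and all tested mitochondrially encoded and eicosanoid genes. Predicted gene symbols were counted but not named, and neither were symbols on more than 1 line. Promoter windows were taken from RefSeq (GRCm38.p6), and 9080 tested genes had one. Some genes that this rule names are not reported here.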

Additional observations from a re-analysis of the deposited data

How the results depend on the processing

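More genes were called lower than higher in each alternative, and no gene was called in the opposite direction in any of them. All alternatives refit the same libraries, and some genes and lists without a call or with small medians changed sign, as given below. With a mean count of at least 50, 182 genes were called higher and 481 lower outside the interferon genes. In a test against a log2 fold change of 1, 20 were called higher, 391 lower and 246 lower outside the interferon genes. With an adjusted p under 0.05 alone the numbers were 2637, 2813 and 2577. With the GC and length trend removed 162 were called higher, and 131 with the replicate block in that fit. Leaving out 1 library at a time gave 226 to 511 genes called higher, the highest without vehicle 3, and 792 to 945 called lower. With the replicate block alone 275 genes were called higher, 243 of them among the 276, and 808 lower, 806 of them among the 904. Of the named genes Map1lc3a, Ripk3 and Mmp3 lost their call under the block and no other did. The cause of these shifts was not tested, apart from the stricter rules, which call fewer genes by construction.

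Of the log2 fold changes of named genes under all alternatives, 2965 kept direction and call, 118 kept direction only and 9 changed sign. The sign changed for Csf1r (0.051 with the GC and length trend removed and the block, and -0.70 to 0.51 over left-out libraries, the latter without vehicle 2), mt-Nd6 (-0.013 with the trend removed), Pla2g6 (0.0097 and, with the block, 0.025), Cysltr1 (-0.29 and -0.28), Ephx1 and Ptges2 (0.070 and -0.11 without vehicle 2). Ephx1 ranged from -0.29 to 0.07 and Ptges2 ranged from -0.11 to 0.28 over left-out libraries. The medians of lists changed sign in 24 of 863 cases. In 5 of them the median was larger than the spread between libraries and moved by more than it: mitochondrial gene expression without vehicle 3 (0.022, against -0.086 without vehicle 2), class II presentation (0.25) and collagens (0.071) with a mean count of at least 50, and semaphorins with the trend removed (0.045, and 0.063 with the block). The other 19 were in 7 lists with medians of at most 0.11 in size, among them cell cycle inhibitors, dsRNA binding, the unfolded protein response, fatty acid oxidation and mesenchymal genes. Depth limits genes such as Ifnb1 and Alox12, which stayed under the count minimum.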
